A study of Mus musculus with 6 samples.

Results

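Matrix metalloproteinases (MMPs) and ADAMs are zinc proteases of the cell surface and the pericellular space. MMPs cleave collagens, gelatins and other matrix proteins, while ADAMs mainly cut the extracellular parts of membrane proteins from the cell, a step called shedding. Tissue inhibitors of metalloproteinases (TIMPs) are small secreted proteins that block the active site of these enzymes, and myeloid cells use the proteases and their inhibitors in migration, cytokine release and leaving the marrow. Described here are 10 of these genes, namely the inhibitors Timp1, Timp2 and Timp3, the MMPs Mmp9 and Mmp14, and Adam8, Adam9, Adam10, Adam15 and Adam17.

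The cells were 32D, a murine myeloid progenitor line that grows only with interleukin-3, labelled as strain C3H/HeJ and as derived from a mouse infected with Friend leukemia virus. Of 6 samples, 3 were mock-transduced and titled with the vector MSCVpuro, and 3 were transduced with Nup98::Nsd1, a leukaemia fusion of a nuclear pore gene with a histone methyltransferase gene. All 6 share the line and its strain, and the labels do not say whether samples of a group were separate cultures, transductions or clones, so the fitted errors cover only the spread between these 6 samples, and that spread may be technical. Each sample has 1 Affymetrix Mouse430_2 array, on which every probe set has a scaled signal on a linear scale and is called Present, Marginal or Absent.

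The 10 genes were taken by symbol out of 18193 named on the array, and 29 of the 45037 probe sets other than controls carry one of these symbols alone. They were chosen on the difference between the groups at Timp2, which was among the largest falls in this same comparison, and the other members followed as its relatives. All differences between the groups are therefore given as a description, the calls of the fit included, and no p-value is printed for these genes. To enter the fit, a probe set had to be Present in 1 or both groups on all 3 arrays, which was so for 15 of the 29, covering 7 genes. Those of Timp1, Timp3 and Mmp14 did not. Of the 29, 13 were Present on all 6 arrays, 9 on no array and 7 on some.

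Markers of myeloid cells were found, although Kit, the stem cell factor receptor, was Present on no array. Of 10 such markers, 9 had a probe set Present on all mock arrays and 8 on all Nup98::Nsd1 arrays. Their summed signal was lower in Nup98::Nsd1 cells, at 38199 to 39145 against 52302 to 54943 in mock cells. Of 5 endothelial markers, Pecam1 was Present on all arrays of both groups and Vwf on all Nup98::Nsd1 arrays but not on all mock arrays. Kdr and Tek were Present on no array. The sum over these 5 was 2818 to 3180 in mock and 2293 to 2548 in Nup98::Nsd1 cells. None of 8 fibroblast markers had a probe set Present on all arrays of a group, and Col1a2, Dcn, Lum and Pdgfra were Present on no array. The summed signal over the 8 was 259 to 329 in mock and 293 to 385 in Nup98::Nsd1 cells. Of 8 macrophage markers, Adgre1, Csf1r and Cd68 were Present on every array and C1qa, C1qb, C1qc and Marco on none. The summed signal of these 8 was 3863 to 4076 in mock and 4314 to 4484 in Nup98::Nsd1 cells. None of 6 T and B cell markers on the array had a probe set Present on all arrays of a group. Their sum was 223 to 254 in mock and 194 to 262 in Nup98::Nsd1 cells. The part of these shifts in the differences below was not tested. Control probes at the 3' end of Actb read 1.18 ± 0.03 times those at the 5' end on mock arrays (mean ± SD, n = 3). On Nup98::Nsd1 arrays they read 1.47 ± 0.026 times. For Gapdh the shift was smaller, with 0.76 ± 0.016 times on mock arrays and 0.82 ± 0.024 times on Nup98::Nsd1 arrays. The part of RNA or labelling quality in these differences was not tested either.

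Timp2, Adam10 and Adam17 were lower in Nup98::Nsd1 cells at every tested probe set, and 250 bases before the start that RefSeq's promoter table gives each gene are shown because these genes moved the same way. They are written in the direction of transcription in build GRCm38.p6, from chr11:118355412-118355661 (minus strand) for Timp2, chr9:70678732-70678981 (plus strand) for Adam10 and chr12:21373633-21373882 (minus strand) for Adam17. The last 38 bases of the Adam10 window lie inside the gene as the RefSeq gene table bounds it. Capitals mark the GC box, GGGCGG on either strand, which transcription factors of the SP family bind; neighbouring boxes can overlap.
Timp2: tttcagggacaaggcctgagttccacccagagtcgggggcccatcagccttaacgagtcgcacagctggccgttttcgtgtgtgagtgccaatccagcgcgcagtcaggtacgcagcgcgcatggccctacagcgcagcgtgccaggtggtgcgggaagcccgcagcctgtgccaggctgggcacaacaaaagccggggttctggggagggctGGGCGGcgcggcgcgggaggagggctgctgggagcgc
Adam10: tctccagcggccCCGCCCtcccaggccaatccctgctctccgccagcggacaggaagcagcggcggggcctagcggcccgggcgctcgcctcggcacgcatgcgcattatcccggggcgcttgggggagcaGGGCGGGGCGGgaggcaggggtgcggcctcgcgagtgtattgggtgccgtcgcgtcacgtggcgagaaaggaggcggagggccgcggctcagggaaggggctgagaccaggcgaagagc
Adam17: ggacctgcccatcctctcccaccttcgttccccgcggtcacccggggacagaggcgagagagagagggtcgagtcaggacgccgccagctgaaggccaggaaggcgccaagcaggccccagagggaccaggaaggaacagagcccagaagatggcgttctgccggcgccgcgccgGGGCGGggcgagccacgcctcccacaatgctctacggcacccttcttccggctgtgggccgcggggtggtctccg
Timp2 and Adam17 have 1 box and Adam10 has 3, of which 2 overlap. Of 32851 RefSeq windows of the same length, 32.7% have at least 1. All 8 windows found for the 10 genes have at least 1, those of Adam8 and Adam15 included, so the box does not set the lower genes apart. The windows are rich in CpG, with 21 in Timp2, 29 in Adam10 and 23 in Adam17 against a median of 6 over all windows. The Adam15 and Timp3 windows have 18 each, the Mmp14 window 10, and the Timp1 and Adam8 windows 6 each, although the Adam8 window lies wholly inside the gene in the gene table. The palindromic E-box CACGTG stands in the Adam10 window, and 6.02% of all windows hold it. No letters of the AP-1 motif TGANTCA (in 6.75% of all windows), the MEIS hexamer TGACAG (15.9%), the TATA box TATAAA (12.4%) or the STAT motif TTCNNNGAA (7.02%), searched on both strands, were found in the 3 windows. The other windows found for the 10 genes hold none of these motifs either, so their absence does not set the lower genes apart.

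Among the inhibitors, Timp2 had the clearest values. Timp2 blocks MMPs and, bound to Mmp14 at the cell surface, also helps to activate Mmp2. At its brightest probe set, 1460287_at, the mock arrays read 404, 381 and 373 and were all called Present. The Nup98::Nsd1 arrays read 35.9, 19.1 and 53.3 and were all called Absent. The groups lay far apart, with the highest Nup98::Nsd1 array well below the lowest mock array. At this probe set Timp2 was 11.6-fold lower in Nup98::Nsd1 cells (measured log2 difference -3.54, SE 0.31). That fold rests on signals that were all Absent in Nup98::Nsd1 cells, and it is no lower limit for the gene: 1420924_at was 1.73-fold lower. In RNA of whole cultures, fewer cells with Timp2 RNA and less Timp2 RNA per cell cannot be told apart. Each Absent signal lay above the lowest signal called Present on its array (8.06 to 15.4), so a floor at that level left the measured fold unchanged. The measured value depends on how low signals are treated: adding 16 or 64 to each signal before taking logs gave -3.002 and -2.18.

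The other Timp2 probe sets ran the same way where there was a signal to compare. Probe set 1420924_at read 96.0, 99.01 and 131 on the mock arrays and 72.6, 45.4 and 73.0 on the Nup98::Nsd1 arrays, of which the second was Absent and the other two Present. Here the groups stood apart by a smaller margin, with a log2 difference of -0.79 (SE 0.25). This second call of Timp2 was lost without mock replicate 3 (-0.65) and without Nup98::Nsd1 replicate 2 (-0.56), and also when every probe set was tested. Probe set 1454677_at, not tested because it was Present on only 2 mock arrays, read 243, 214 and 167 in mock cells and 2.05, 6.33 and 4.64 in Nup98::Nsd1 cells, at least 18.1-fold lower once the latter were raised to the lowest Present signal of their arrays. Probe set 1433662_s_at, Present on 2 mock arrays and untested, read 134, 142 and 154 against 55.1, 72.8 and 32.5. These pairs of groups did not overlap. The remaining probe sets, 1437081_at and 1450040_at, were Absent on all arrays, with signals of 1.02 to 25.5 and 12.5 to 91.8, and their groups overlapped. The same gene thus gave log2 differences 2.75 apart at its tested probe sets.

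Timp1 and Timp3 were near or below detection. Timp1, the inhibitor that is usually induced with MMPs in inflammation, has a single probe set that was Absent on every array, at 35.4, 27.6 and 3.31 in mock cells and 21.6, 35.7 and 3.67 in Nup98::Nsd1 cells. These groups overlapped. Timp3, which binds to the matrix and is the TIMP that inhibits Adam17, has 4 probe sets. At 1419088_at the mock arrays read 32.9, 51.8 and 28.4 and the Nup98::Nsd1 arrays 43.9, 41.7 and 41.9, with 2 mock arrays and 1 Nup98::Nsd1 array Present. At 1419089_at the mock arrays, all Absent, read 26.8, 21.0 and 7.57, and the Nup98::Nsd1 arrays 62.8, 50.9 and 30.7, of which only the second was Present. The first pair of groups overlapped and the second did not. The other Timp3 probe sets were Absent throughout, between 1.99 and 30.9. No fold is given for Timp1 or Timp3.

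**Figure D1:**
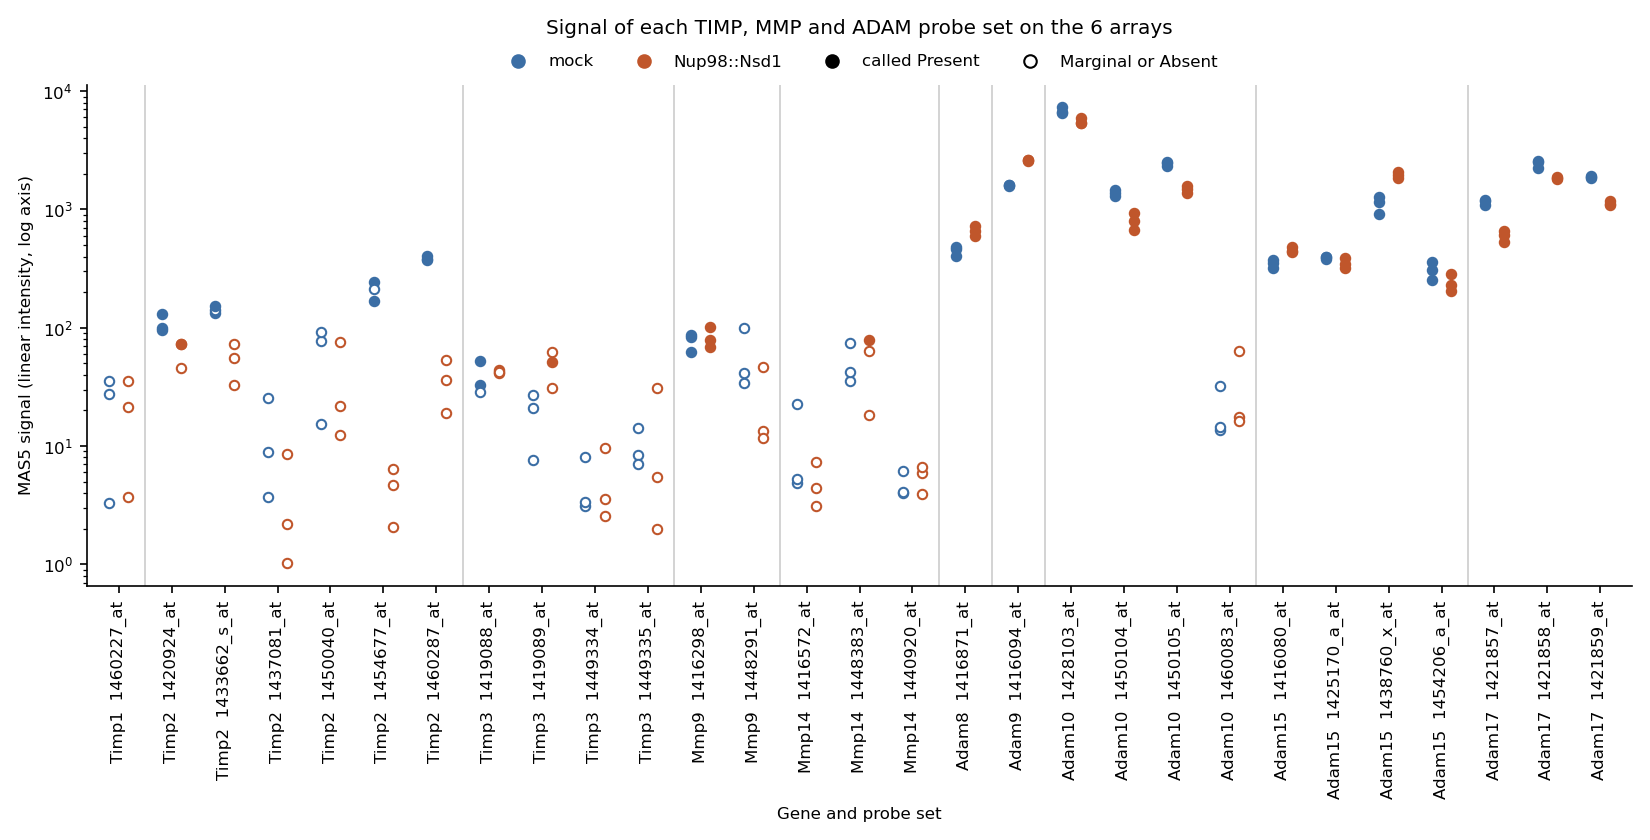
Signal on a log axis of each of the 29 probe sets of the 10 genes, with 1 point per array, mock in blue and Nup98::Nsd1 in orange; filled points were called Present and open points Marginal or Absent. The brightest Timp2 probe set is filled at 373 to 404 in mock and open at 19.1 to 53.3 in Nup98::Nsd1 cells, whereas most Timp1, Timp3 and Mmp14 points are open in both groups. Heights can be compared within a probe set, not between probe sets.

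Of the secreted and membrane MMPs, neither showed a difference beyond its spread. Mmp9, the gelatinase B that neutrophils store, was Present on all arrays at 1416298_at, with 87.6, 62.1 and 83.1 in mock cells and 69.0, 78.8 and 101 in Nup98::Nsd1 cells. These groups overlapped. The log2 difference was 0.09 with a 95% confidence interval of -0.44 to 0.62, an interval that holds changes of either sign, and each other scaling turned its sign. The second Mmp9 probe set, 1448291_at, was Absent on all arrays, between 11.7 and 99.4. Mmp14, the membrane-bound MMP that activates Mmp2 together with Timp2, was Absent on all arrays at 2 of its 3 probe sets. At 1448383_at it read 35.1, 74.4 and 41.9 in mock cells, with 1 Marginal call, and 63.7, 78.9 and 18.2 in Nup98::Nsd1 cells, with 1 Present and 1 Marginal call. The groups overlapped there too.

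The ADAMs were all Present on every array at their main probe sets and split by direction. Adam10 and Adam17, the general sheddases, were lower in Nup98::Nsd1 cells, and Adam8 and Adam9 higher. Over the 7 tested genes, each read at its brightest tested probe set, 3 were called higher (Adam8, Adam9 and Adam15) and 3 lower (Timp2, Adam10 and Adam17), while 42.9% of all tested genes were called higher and 29.5% lower. Adam15 is counted here by its brightest probe set. Of its 4 tested probe sets, 2 were called higher and the others were not called. With the mean of a gene's tested probe sets, and with hybridization control scaling, 2 genes were called higher rather than 3. The median log2 difference of these 7 genes was 0.09, against 0.12 over all tested genes. Over probe sets, 4 of 15 were called higher and 8 lower, against 42.3% and 27.6% of all 20494 tested. Over the 15, the median log2 difference was -0.36, against 0.15 over all tested probe sets, and both directions together made 80.0% against 69.9%. The groups did not overlap at 12 of the 15, and at 73.2% of all tested probe sets. Because the set came from this comparison, nothing is read from these shares.

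Adam17, also called TACE, sheds tumour necrosis factor, its receptors and L-selectin. At its brightest probe set, 1421858_at, the mock arrays read 2259, 2540.2 and 2584 and the Nup98::Nsd1 arrays 1842, 1811 and 1884, a log2 difference of -0.41 (SE 0.06). At 1421859_at they read 1862, 1884 and 1917 against 1189, 1097 and 1107 (-0.74, SE 0.05). At 1421857_at they read 1084, 1210 and 1173 against 614, 530.5 and 659 (-0.95, SE 0.09). Every Nup98::Nsd1 array lay below every mock array at each of these probe sets, and Adam17 fell by 1.33-fold to 1.93-fold depending on the probe set.

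Adam10 sheds Notch receptors, the amyloid precursor protein and many adhesion molecules. At 1428103_at the mock arrays read 6531, 7303 and 6713 and the Nup98::Nsd1 arrays 5331, 5424 and 5880.0, a log2 difference of -0.30 (SE 0.05). At 1450105_at they read 2483, 2515 and 2309 against 1578, 1375 and 1482 (-0.72, SE 0.06). At 1450104_at they read 1381, 1471 and 1307 against 675, 926 and 796 (-0.81, SE 0.10). The groups stood apart at each, and the brightest probe set showed the smallest difference, as it did for Adam17. The last Adam10 probe set, 1460083_at, was Absent on every array, between 13.8 and 63.4.

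Adam9, which sheds several membrane-bound growth factors, and Adam8, a myeloid ADAM of granulocytes and monocytes, were higher. Adam9 read 1597, 1573 and 1619 on the mock arrays and 2583, 2632 and 2606 on the Nup98::Nsd1 arrays, a 1.63-fold rise (log2 difference 0.71, SE 0.04). Replicates of Adam9 lay close together in both groups. Adam8 read 484, 405 and 462 against 599, 723 and 654, a 1.46-fold rise (0.55, SE 0.10). The Adam8 groups also stood apart, by a gap smaller than the range of the Nup98::Nsd1 arrays on the linear scale but not on the log2 scale. Adam8 was not called when arrays were scaled to the hybridization controls (0.18), while Adam9 still was (0.34).

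Adam15, the ADAM known in humans for an integrin-binding motif, gave no single direction. Its brightest probe set, 1438760_x_at, read 1164, 1285 and 911 in mock cells and 2060.0, 1944 and 1847 in Nup98::Nsd1 cells (log2 difference 0.81, SE 0.10). The suffix x marks probe sets that hold probes matching other transcripts as well. Probe set 1416080_at read 322, 370.5 and 353 against 444, 434 and 478 (0.38, SE 0.09). Both of these were called higher, with groups that did not overlap. Probe set 1454206_a_at instead read 360.2, 255 and 309 against 282, 206 and 231 (-0.36, SE 0.16), and 1425170_a_at read 381, 395 and 399 against 389.6, 319.9 and 343 (-0.16, SE 0.10). Their groups overlapped and neither was called. Under quantile normalization, centring on the 75th percentile or the median, and hybridization control scaling, both of the latter were called lower (-0.33 to -0.73), while 1416080_at was no longer called (0.01 to 0.21) and 1438760_x_at still was (0.45 to 0.80). Probe set 1454206_a_at was also called lower without mock replicate 2 (-0.49) and without Nup98::Nsd1 replicate 1 (-0.49).

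**Figure D2:**
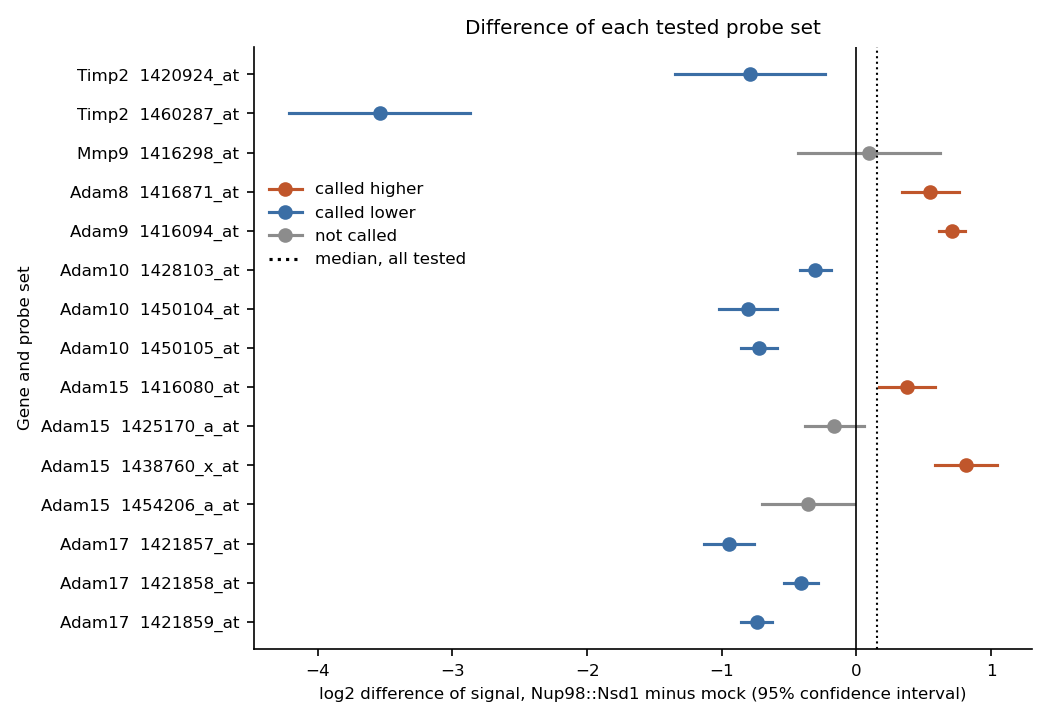
Log2 difference of signal (Nup98::Nsd1 minus mock, 3 arrays each) of the 15 tested probe sets, with 95% confidence intervals from the fit; the dotted line is the median of all tested probe sets, 0.15. Timp2, Adam10 and Adam17 lie left of 0, Adam8 and Adam9 right of it, and the 4 Adam15 probe sets on both sides from -0.36 to 0.81.

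The scaling of the arrays turned the sign of Mmp9 alone among the tested genes. It also changed calls of Adam8 and Adam15, but not their signs. As deposited, 60.5% of all called probe sets were higher in Nup98::Nsd1 cells. That share was 49.7% after quantile normalization, 47.1% with median centring, 44.8% with 75th percentile centring and 32.3% with hybridization control scaling, and the median log2 difference of all tested probe sets moved from 0.15 to -0.009, -0.02, -0.04 and -0.21. Relative to the deposited median of 0.15, the brightest probe sets stood at -3.69 for Timp2, -0.46 for Adam10, -0.56 for Adam17, 0.40 for Adam8 and 0.56 for Adam9. All 3 tested probe sets of Adam10, all 3 of Adam17, and Adam9 kept their sign and their call under these 4 scalings. Timp2 at 1460287_at did too, but nothing is read from this. Timp2 was chosen for its fall, and this probe set entered the fit only through the mock group, in which it is high. Across the 4 scalings, the brightest probe set ranged from -0.67 to -0.15 for Adam10 and from -0.78 to -0.37 for Adam17.

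**Figure D3:**
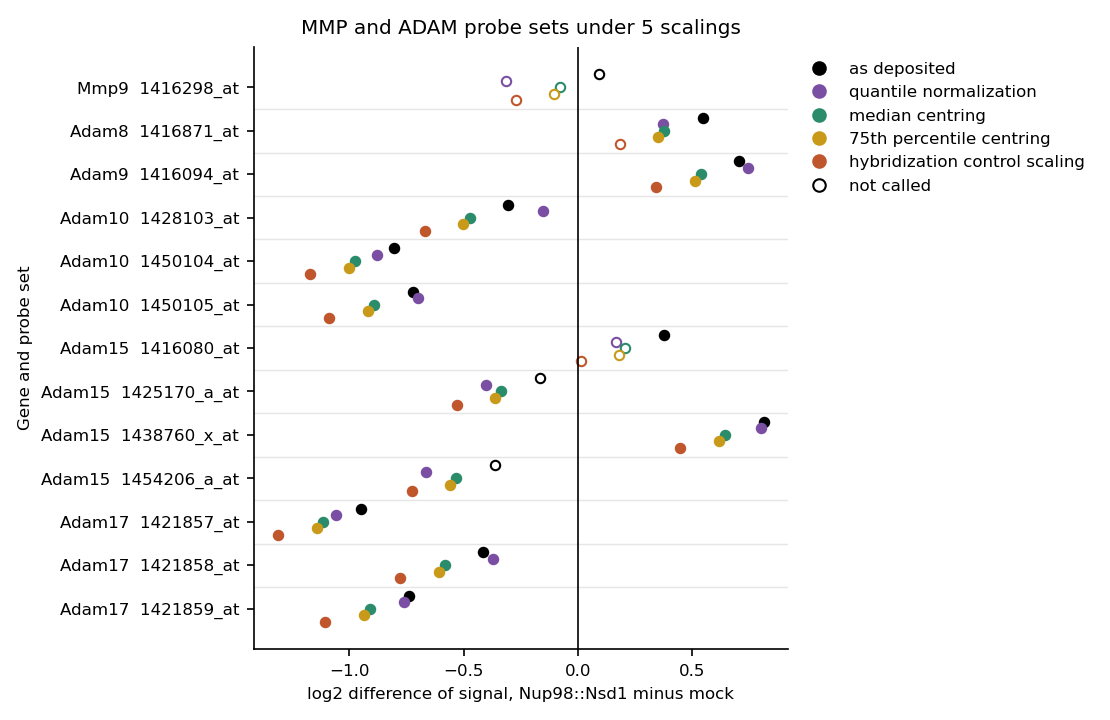
Log2 difference of the 13 tested MMP and ADAM probe sets under 5 scalings, 1 colour each; filled points were called at an adjusted p of 0.05 and open points were not. Adam10 and Adam17 stay left of 0 and Adam9 right of it in filled points, Mmp9 is open on both sides, and 2 Adam15 probe sets are filled on the left under every scaling other than the deposited one.

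Ratios of probe sets on the same array do not depend on any factor that scales the whole array, although quantile normalization can move them. The log2 ratio of Adam9 to Adam17, at their brightest probe sets, was -0.50, -0.69 and -0.67 on the mock arrays and 0.49, 0.54 and 0.47 on the Nup98::Nsd1 arrays. The log2 ratio of Adam8 to Adam10 was -3.76, -4.17 and -3.86 on the mock arrays and -3.15, -2.91 and -3.17 on the others. Groups of arrays were separate in both, and the ratios changed by 1.12 and 0.85 on the log2 scale, and by 1.11 and 0.53 after quantile normalization. Each pair sets a gene called higher over a gene called lower, so these changes restate the differences above and are no separate evidence. The log2 ratio of Adam17 to Adam10 changed by less, from -1.53, -1.52 and -1.38 to -1.53, -1.58 and -1.64. These groups all but touched without overlapping, and the change of -0.11 became -0.22 after quantile normalization. Within Adam15, the log2 ratio of 1438760_x_at to 1454206_a_at was 1.69, 2.33 and 1.56 on the mock arrays and 2.87, 3.24 and 2.999 on the Nup98::Nsd1 arrays. The change was 1.18 (1.47 after quantile normalization). These were the Adam15 probe sets with the highest and the lowest difference, so the gap follows from that choice.

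**Figure D4:**
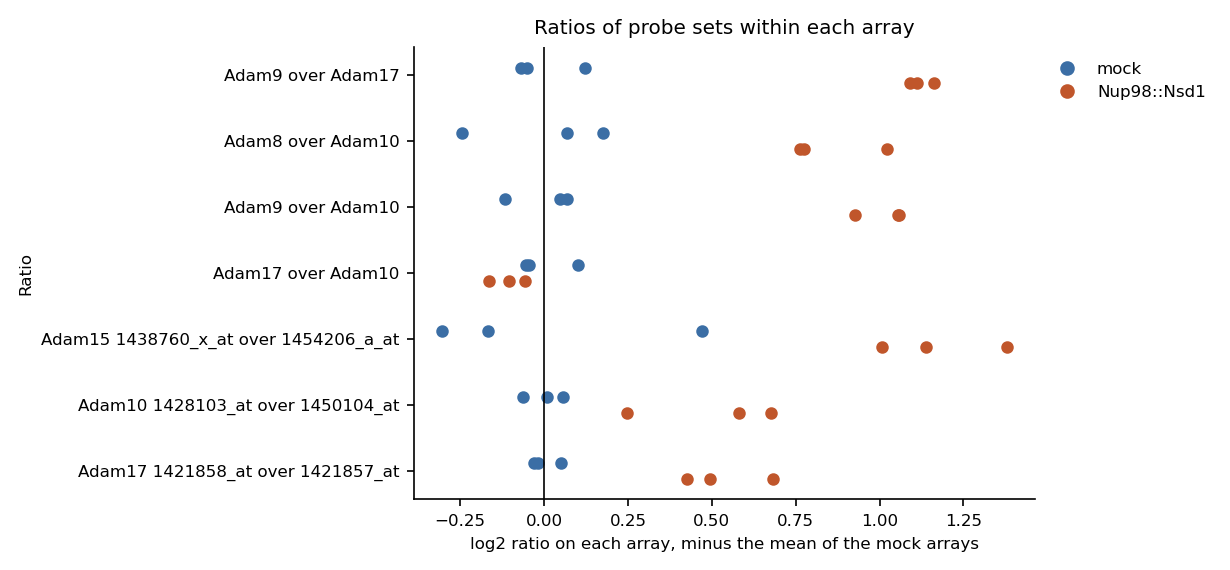
Log2 ratio of a pair of probe sets on each of the 6 arrays, after the mean of the mock arrays was subtracted; genes named alone are read at their brightest probe set. Nup98::Nsd1 arrays lie right of all mock arrays for Adam9 over Adam17, Adam8 over Adam10, Adam9 over Adam10 and the pairs within Adam15, Adam10 and Adam17 (highest over lowest difference), while for Adam17 over Adam10 they lie just left of the mock arrays, at a mean of -0.11.

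The wider pathway was described by lists of 136 other genes, of which 120 were on the array under these names and 31 were tested. Of the 31, 15 were higher and 7 lower (22 called, 71.0%, against 72.3% of all tested genes), with a median log2 difference of 0.11 against 0.12 over all genes, so the lists as a whole were called about as often as any gene. With hybridization control scaling these counts became 8 and 15. Among probe sets Present on all 6 arrays they were 12 and 7. Il6ra, Rhbdf2 and Adamts10 entered the fit only through the Nup98::Nsd1 group, in which they are high, so their p-values below are those of the fit to all probe sets, with no filter on detection. Of the 120, 65 were Present on no array at any probe set, among them 14 of the 16 other MMPs, 18 of the 22 other ADAMs and 12 of the 15 ADAMTS proteases. The other p-values of these genes are limma's, adjusted over all 20494 tested probe sets. Mmp19, a widely expressed MMP and the only other MMP tested, read 221, 246 and 192 in mock cells and 118, 72.9 and 64.7 in Nup98::Nsd1 cells, 2.66-fold lower (adjusted p = 0.000164). Adamts10, a protease that binds fibrillin microfibrils, was Present on 1 mock array and on all Nup98::Nsd1 arrays at its brighter probe set, where it was higher (201 ± 29.2 to 351 ± 40.6, mean ± SD, n = 3; adjusted p = 0.000626), and was not called at the other (log2 difference -0.37). Of the other inhibitors, Reck, a membrane-anchored inhibitor of MMPs, stood at 322 ± 16.2 and 334 ± 57.3 (log2 difference 0.04, adjusted p = 0.792), and Pcolce, an enhancer of procollagen cleavage, was 1.66-fold lower (adjusted p = 0.0106), a call that was lost without mock replicate 3 (-0.58, adjusted p = 0.0523).

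Partners of Adam10 and Adam17 went both ways. Of 4 tested, 2 were higher and 2 lower, against 42.9% and 29.5% of all tested genes. Rhbdf2, the iRhom2 protein that carries Adam17 out of the endoplasmic reticulum in myeloid cells, read 409, 416 and 428 in mock cells, with 1 Present call, and 853, 964 and 893 in Nup98::Nsd1 cells, 2.16-fold higher (adjusted p = 3.87e-07). Frmd8, which stabilises the iRhoms, was lower by 0.46 on the log2 scale (adjusted p = 0.000372). The tetraspanins Tspan14 and Tspan5, which escort Adam10, were higher by 0.38 (adjusted p = 0.000763) and lower by 0.32 (adjusted p = 0.0049). The Tspan14 call was lost with 75th percentile centring and with hybridization control scaling (0.18 and 0.01). Of 4 proprotein convertases, Furin, which removes the inhibitory propeptide of ADAMs and membrane MMPs, was higher (549, 587 and 580.1 against 973, 1003 and 906, 1.68-fold, adjusted p = 1.74e-06), and 3 were not called, although a dimmer probe set of one of them, Mbtps1, was called lower (-0.90). Plaur, the urokinase receptor, was the only plasminogen system gene tested and was 1.49-fold higher (adjusted p = 0.000261), with its call lost under hybridization control scaling (0.21).

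Of 14 tested genes whose proteins Adam10 or Adam17 sheds, 9 were higher and 1 lower, a called share of 71.4% against 72.3% of all tested genes, of which 42.9% were higher and 29.5% lower. No test of this split was made. Il6ra, the interleukin-6 receptor alpha chain, was Absent on all mock arrays at 15.3, 4.66 and 7.82 and read 123, 155 and 156 in Nup98::Nsd1 cells, at least 13.02-fold higher (adjusted p = 0.000104). Icam1, an integrin ligand, was 1.72-fold higher (adjusted p = 4.94e-07), the chemokine Cx3cl1 2.50-fold (adjusted p = 2.12e-06) and the junction protein F11r 1.59-fold (adjusted p = 7.32e-06). These stood apart from mock on every array. Tnf itself read 277 ± 76.3 and 297 ± 80.4 and was not called (adjusted p = 0.674). Axl, Cd44, Spn and Tnfrsf1b each had another tested probe set with a different call. Of 4 tested matrix and surface partners, Itgb1, the beta chain of many matrix integrins, was lower at all 3 tested probe sets, by 1.24 at the brightest (adjusted p = 2.96e-08). Bsg, the MMP inducer basigin, was 1.48-fold lower (adjusted p = 2.71e-06), while Col4a2, a basement membrane collagen chain, was 1.57-fold higher (adjusted p = 0.00082), a call lost with quantile normalization and hybridization control scaling (0.29 and 0.28).

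**Figure D5:**
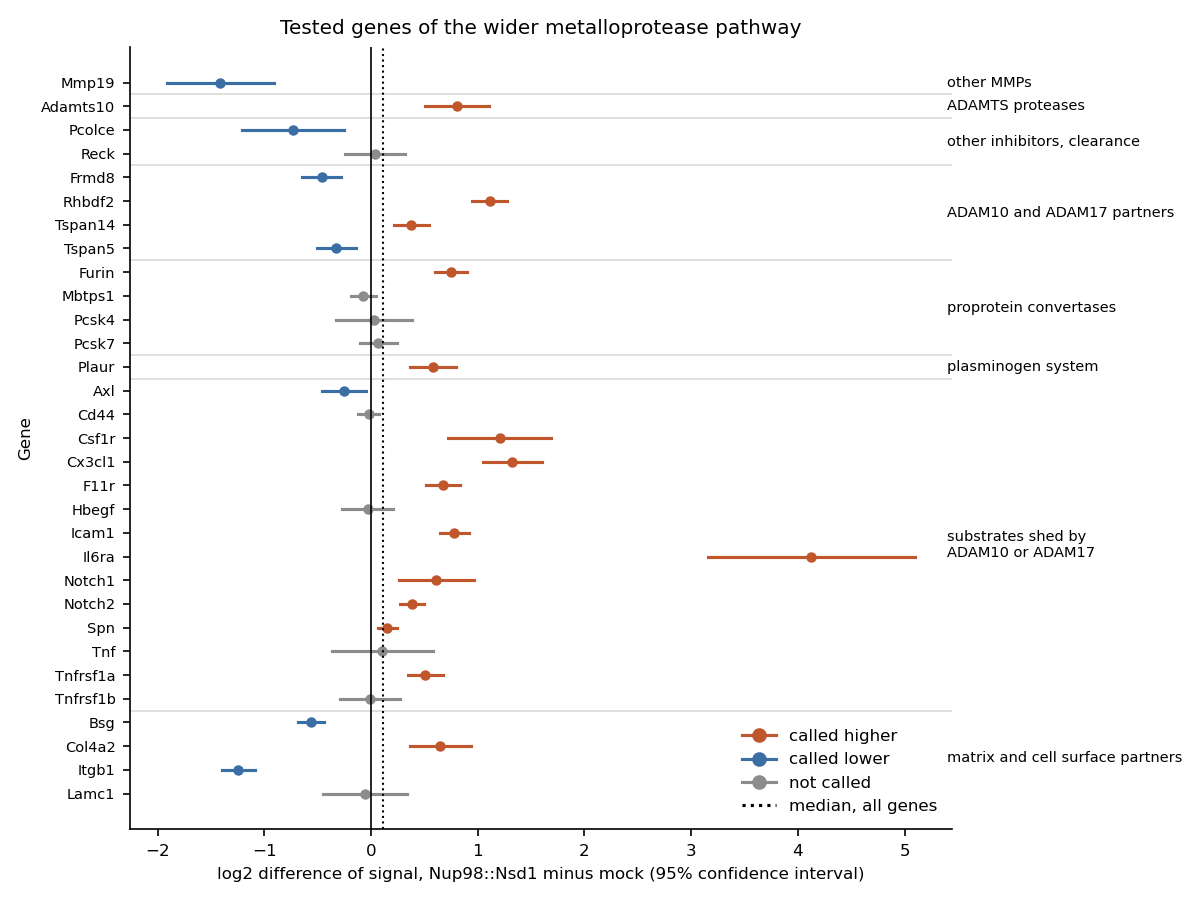
Log2 difference (Nup98::Nsd1 minus mock, 3 arrays each) with its 95% confidence interval for the 31 tested genes of the wider lists, named at the right, each at its brightest tested probe set. Blue genes were called lower, orange genes higher and grey genes not called; the dotted line is the median of all tested genes, 0.12. Il6ra, which was Absent on all mock arrays, is drawn at its measured difference, which shrinks to 2.68 and 1.51 when 16 or 64 is added to each signal.

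The genes whose pattern was most like that of Timp2 were found by the root mean square difference of log2 signals over the 6 arrays, each centred on its own mean. The nearest were Pxk, a phox-domain protein, at 0.17, Stab1, a scavenger receptor, at 0.46, and Kcne3, a potassium channel subunit, at 0.56. All 3 were lower in Nup98::Nsd1 cells. Because Timp2 was chosen for its difference between the groups, this likeness mostly restates that difference, and it also uses the 3 Absent signals of Timp2, so the order of the genes carries little weight.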

How the data were processed

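RNA was measured on 1 array per sample. Per the file headers, the authors deposited a scaled MAS5 signal, a linear intensity, with a detection p-value and call for each probe set; MAS5 is also named in the submitters' processing notes. Version and scaling target: not given in the sources used here. Intensities in the series matrix were the same (largest relative difference 5.0e-06).

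The platform annotation gave 1 symbol to 34945 of 45037 non-control probe sets; symbols were updated by Entrez identifier in the RefSeq table (GRCm38.p6). Signals under 1 were set to 1 and taken to log2. The 20494 probe sets Present on every array of either group were fitted with limma 3.58.1 (R 4.3.3; moderated linear model, intensity trend, Benjamini-Hochberg over all, threshold 0.05); a gene was read at its brightest tested probe set (9641 genes). The script was tested on simulated data. The members and lists were chosen with earlier results of these data known. In each list up to 4 called genes with the smallest p were named, or the 2 largest changes; other list genes were added after their values were seen. Alternatives were 2 pseudocounts (16 and 64), a floor at the lowest Present signal, 2 other detection filters, 4 scalings, the series matrix, no trend, array weights, a replicate block, the mean of probe sets, and leaving out each array. The number of arrays limits the precision.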

Additional observations from a re-analysis of the deposited data

Results flagged for a closer look

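One untested probe set stood out. Timp3 at 1419089_at was Present on no mock array and on 1 Nup98::Nsd1 array, and its mean signal was 48.1 in Nup98::Nsd1 cells (SD 16.2) against 18.4 in mock cells (SD 9.86, n = 3 each), with no overlap of the groups. It lay outside the fit because it was not Present on all 3 arrays of a group, and at 1419088_at, where Timp3 was Present on 3 of the 6 arrays, the groups overlapped. The difference was not tested.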

How the results depend on the processing

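Counts of called genes stayed within 1.5 times of the reported ones under every alternative except hybridization control scaling, which gave 2 rather than 4 probe sets of the 10 genes higher, and 8 higher and 15 lower genes of the wider lists. Mmp9 turned to -0.31 under quantile normalization, -0.27 when scaled to hybridization controls, -0.10 when centred on the 75th percentile and -0.076 on the median, and ranged from -0.059 to 0.22 when single arrays were left out; it was called under none of these. Such omissions left 3 genes called higher and 3 lower, with 4 probe sets higher and 7 to 9 lower. Deviations of same-numbered arrays correlated at -0.02, -0.01 and 0.02. These values gave no sign that replicate numbers pair the samples, but 3 arrays per group cannot exclude it. With the number as a replicate block, 14257 rather than 14335 probe sets were called, and 9 rather than 8 of the 10 genes' probe sets were lower, the added one being Adam15 at 1454206_a_at. Not every array correlated best with its own number. The cause of these shifts was not tested. Absent calls on most arrays limit what can be said of Timp1, Timp3 and Mmp14, and of Timp2 in Nup98::Nsd1 cells.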
